A study of Homo sapiens with 6 samples.

Results

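The mRNAs described here encode the nuclear part of the mitochondrial respiratory chain: the subunits of complexes I to IV and of ATP synthase (complex V) that are made from nuclear genes. They were chosen by gene symbol, as every gene whose name follows the NDUF, SDH, UQCR, CYC1, COX4 to COX8 or ATP5 pattern and that had at least 1 RPKM (the read number of a gene scaled by its exon length and by library depth) in the control library, without names that end as pseudogene names do. The rule used no difference between libraries. It took 79 of the 13689 genes at that level in mouse embryonic fibroblasts (MEFs), 78 of 16911 in MDA-MB-231 cells and 78 of 15415 in HCC1937 cells. Between 4 genes (complex II) and 37 genes (complex I in the human lines) belong to each complex, with 9 for complex III, 13 in MEFs and 11 in the human lines for complex IV, and 17 for complex V. In all, 81 symbols passed in at least 1 cell type and 76 in all 3. The e subunit gene of ATP synthase was counted under separate symbols in mouse (ATP5K) and human (ATP5I). The matched names that stayed below 1 RPKM were tissue-restricted isoforms of complex IV and 2 human ATP5 copies: 5 of 84 symbols in the MEF table and 8 of 86 in the human tables. The symbols are those of the files, so that ATP5A1, for example, is the gene now named ATP5F1A.

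The study measured RNA in LARP7-depleted cells and their controls. LARP7 is a La-related protein that binds and stabilises the 7SK RNA, and the study's title concerns it as a substrate of BRCA1. LARP7-/- MEFs were compared with wild-type MEFs. They are primary fibroblasts of embryos at day E13.5 and were used at passages 1 to 6. MDA-MB-231 cells, a mesenchymal human breast cancer line, received siLARP7 or the control siRNA siNC at 10 ng/ml. HCC1937 cells, a human breast cancer line known for its mutant BRCA1, received the same siRNAs, so that a defect in BRCA1 is common to both HCC1937 groups. The sources used here do not give the time spent with the siRNA or the number of embryos behind the MEFs.

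With 1 library in each of the 6 groups, the differences below were measured without replicates, none was tested, and the spread between cultures is unknown. Depth, recovered from the values, was about 37.3 M reads for LARP7-/- MEFs and 36.9 M for wild-type MEFs. In MDA-MB-231 it was 53.3 M reads with siLARP7, against 49.6 M with siNC, and in HCC1937 50.6 M with siLARP7, against 49.3 M with siNC. LARP7 itself was lower in each depleted library, with 5.72 RPKM in LARP7-/- MEFs, against 15.2 RPKM in wild-type MEFs, 4.51 and 8.65 RPKM with siLARP7 and siNC in MDA-MB-231, and 2.89 and 5.62 RPKM with siLARP7 and siNC in HCC1937. Reads over LARP7 remained in the LARP7-/- library, and the sources used here do not say which part of the gene was deleted. Of the cell type markers, 6 of 6 fibroblast markers had at least 1 RPKM in wild-type MEFs and summed to 2786 RPKM in LARP7-/- MEFs, against 2888 RPKM in wild-type MEFs. Among them the collagen gene Col3a1 was higher (65.8 and 39.4 RPKM in LARP7-/- and wild-type MEFs) and Vim lower (514 and 698 RPKM). Of 6 epithelial markers, 2 had at least 1 RPKM in wild-type MEFs. Krt19 had 15.4 RPKM in LARP7-/- MEFs, against 16.1 RPKM in wild-type MEFs, and Krt18 was higher (1.91 and 1.12 RPKM). Of the 4 MDA-MB-231 markers, VIM (199 and 149 RPKM with siLARP7 and siNC) and CD44 (93.5 and 100.3 RPKM) were present, while the hormone receptor gene ESR1 had 0 and 0.0207 RPKM and PGR had 0 RPKM in both libraries. This line also held 4 of 6 epithelial markers at 1 RPKM or more in the control, KRT8, KRT18, KRT19 and EPCAM, but not CDH1 or KRT5. The 6 summed to 273 RPKM with siLARP7, against 237 RPKM with siNC. In HCC1937 6 of 6 epithelial markers had at least 1 RPKM in the control and summed to 690.1 RPKM with siLARP7, against 692 RPKM with siNC, with CDH1 lower (20.4 and 30.2 RPKM) and KRT5 (15.4 and 10.1 RPKM) and KRT19 (6.31 and 4.29 RPKM) higher. Of the leukocyte markers, PTPRC was at most 0.0370 RPKM in any library and LYZ at most 0.0686 RPKM in the human lines. CD68 was present, with 26.0 and 29.4 RPKM with siLARP7 and siNC in MDA-MB-231, and 40.5 and 32.8 RPKM in HCC1937. In MEFs CD68 was higher, with 3.62 and 2.05 RPKM in LARP7-/- and wild-type MEFs. The part of these marker differences in the results was not tested. With 1 culture a group, less mRNA per cell and a change in the mix of cells cannot be told apart.

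As background, the respiratory chain sits in the inner mitochondrial membrane. Complex I (NADH dehydrogenase) and complex II (succinate dehydrogenase) pass electrons to ubiquinone, complex III (the cytochrome bc1 complex) passes them on to cytochrome c, and complex IV (cytochrome c oxidase) to oxygen. Complexes I, III and IV pump protons, and ATP synthase makes ATP as the protons flow back. Complex II is built from nuclear genes alone, while the others also need subunits encoded by the mitochondrial genome. Many nuclear subunit genes are known targets of the transcription factors NRF1 and GABP, an ETS factor, and of YY1.

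Levels differed widely among the subunits and between cell types. In the controls the medians of the members were 40.6 RPKM in wild-type MEFs, 28.3 RPKM in MDA-MB-231 with siNC and 43.9 RPKM in HCC1937 with siNC. The most abundant mRNA was COX8A, a small complex IV subunit, in both human lines, with 404 RPKM with siLARP7, against 435 RPKM with siNC in MDA-MB-231 and 800.3 RPKM with siLARP7, against 774 RPKM with siNC in HCC1937. In MEFs it was COX6A1, the widely expressed isoform of another small complex IV subunit, with 661 RPKM in LARP7-/- MEFs, against 571 RPKM in wild-type MEFs. Of the 78 human members, 61 (78.2%) had a higher level in the HCC1937 control than in the MDA-MB-231 control, as did 47.2% of all 12629 genes at 1 RPKM or more in both. Mitochondrially encoded mRNAs, which take up part of the same total, summed to 11278 RPKM in the HCC1937 control and 67030 RPKM in the MDA-MB-231 control. The order of the members was similar in both, with a Spearman correlation of 0.84 across genes, which are not independent replicates. Among the members higher in HCC1937 was CYC1, the cytochrome c1 subunit of complex III. It had 430.0 RPKM in the HCC1937 control and 102 RPKM in the MDA-MB-231 control. The complex I genes NDUFB9 (90.3 and 8.60 RPKM) and NDUFS6 (283 and 47.3 RPKM), in the same order, differed by a larger ratio. The tables of the cell types were handled apart, so these levels are set side by side without a test.

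In MDA-MB-231 cells, most subunit mRNAs had lower values with siLARP7. The log2 ratio of siLARP7 to siNC, taken on RPKM + 1, had a median of -0.15 over the 78 members, against -0.01 over all 16911 genes and -0.02 over protein-coding genes. It was below 0 for 52 members and above 0 for 26. A gene is called lower or higher here when its log2 ratio is at least 0.32 in size, which is a rule of size and not a test. By that rule 24 of 78 members (30.8%) were lower and 0 were higher, while among all genes 14.1% were called lower and 9.3% higher (12.7% and 5.98% of protein-coding genes). At 1.5-fold, 7 members were lower and 0 higher, against 4.19% and 1.8% of all genes. On the RPKM + 1 scale 0 members reached 2-fold, while 0.769% of all genes were lower and 0.201% higher by that much. Summed over the members, RPKM with siLARP7 was 88.0% of that with siNC. The approximate read numbers behind the members were large, with 783 to 24319 reads per gene in the siNC library and a median of 3404. The exact 95% interval of the ratio, which covers counting error only, lay below 100% for 46 members, above it for 20 and included it for 12.

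**Figure D1:**
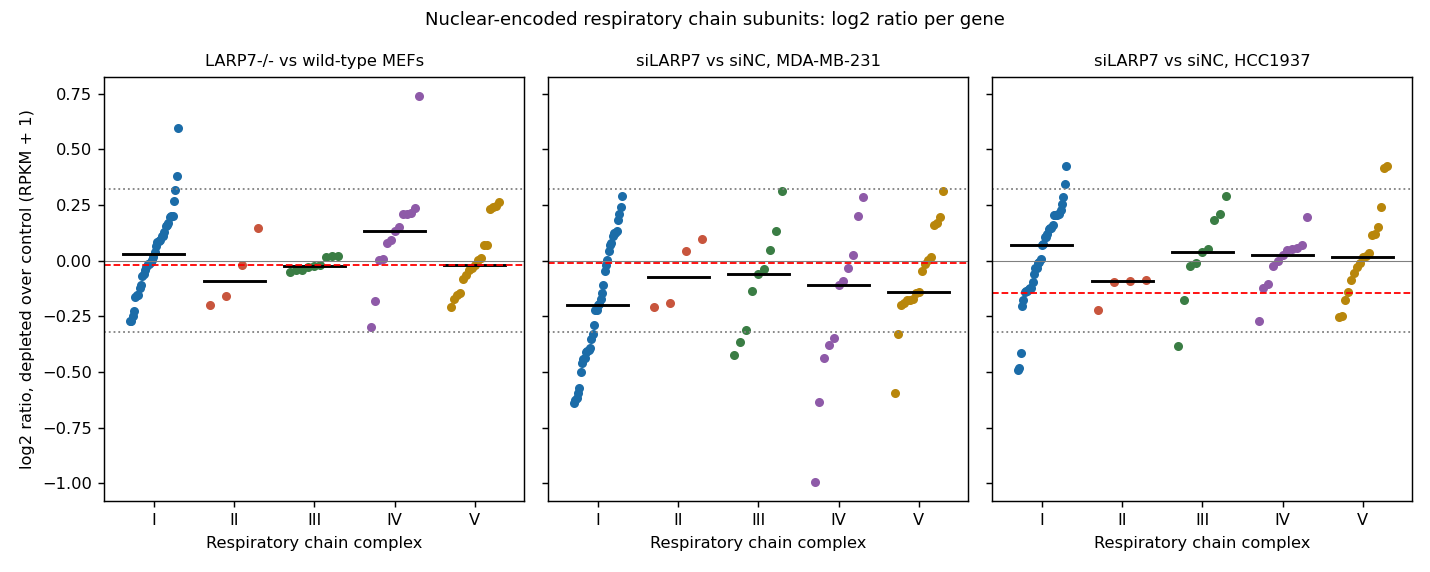
Log2 ratio of LARP7-depleted to control (RPKM + 1, vertical axis) of each subunit gene, by complex (horizontal axis), in MEFs, MDA-MB-231 and HCC1937, with 1 library per group. Black bars are medians of a complex, the red dashed line is the median of all genes at 1 RPKM or more in the control, and dotted lines mark the size rule of 0.32; 24 members lie below the lower dotted line in MDA-MB-231, against 0 in MEFs and 4 in HCC1937.

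The largest group of these was in complex I. Of its 37 members 15 were lower, and their median log2 ratio was -0.20. Accessory subunits surround the catalytic core, and many are needed for its assembly and stability. By name 15 of 30 accessory members were lower, with a median of -0.31, against 0 of the 7 core members, with a median of -0.14. Without NDUFA4, later assigned to complex IV, 14 of 29 accessory members were lower, with a median of -0.29. NDUFC2, of the membrane arm, had 50.2 RPKM with siLARP7, against 78.8 RPKM with siNC, or 63.7% of control (95% interval 61.8% to 65.6%), a log2 ratio of -0.64. NDUFA1, a small X-linked membrane subunit needed for the assembly of the complex, had 51.7 RPKM with siLARP7, against 80.3 RPKM with siNC, a log2 ratio of -0.62. Other membrane-arm subunits of the B series lay next to them. NDUFB3 had 22.8 RPKM with siLARP7, against 35.6 RPKM with siNC, a log2 ratio of -0.62. NDUFB1 had 8.19 RPKM with siLARP7, against 12.9 RPKM with siNC, a log2 ratio of -0.59. NDUFB6 had 22.4 RPKM with siLARP7, against 33.7 RPKM with siNC, a log2 ratio of -0.57. In each of these genes the siLARP7 value was between 63.7% and 66.4% of the siNC value. NDUFB2, NDUFB5 and NDUFB8 were lower by less, with log2 ratios of -0.46, -0.33 and -0.40. Of these B-series genes NDUFB5 alone lost its call, at -0.24, when adjusted for GC content, length and level as described below.

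Accessory subunits of the matrix arm were among the lower genes too. NDUFA5 was the least abundant of them, with 2.86 RPKM with siLARP7, against 4.45 RPKM with siNC and a log2 ratio of -0.50. NDUFS6, a zinc-binding subunit, had 34.5 RPKM with siLARP7, against 47.3 RPKM with siNC (-0.44), and NDUFS4, whose loss in patients causes Leigh syndrome, had 21.3 RPKM with siLARP7, against 28.6 RPKM with siNC (-0.41). NDUFS5, on the intermembrane side, was the most abundant complex I mRNA in this line, with 159 RPKM with siLARP7, against 215 RPKM with siNC and a log2 ratio of -0.44. NDUFA12 and NDUFA2 were called as well, with log2 ratios of -0.39 and -0.35. NDUFA4 had 19.2 RPKM with siLARP7, against 25.8 RPKM with siNC (-0.41). Adjusted for GC content, length and level as described below, NDUFS6 alone of these genes was still called lower, at -0.42. NDUFA5, NDUFS4, NDUFS5, NDUFA12, NDUFA2 and NDUFA4 then lay between -0.30 and -0.26.

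The catalytic core of complex I differed by less. NDUFV1, which binds NADH and the flavin, had 34.2 RPKM with siLARP7, against 33.1 RPKM with siNC, a log2 ratio of 0.05. NDUFS1, the largest iron-sulphur subunit, had 3.90 RPKM with siLARP7, against 4.72 RPKM with siNC (-0.22). The core values thus lay on both sides of 0. The highest ratios of the complex belonged to NDUFB10, an accessory membrane-arm subunit with 39.5 RPKM with siLARP7, against 32.0 RPKM with siNC (0.29), and to NDUFS8, an iron-sulphur core subunit with 29.8 RPKM with siLARP7, against 25.1 RPKM with siNC (0.24). Both were short of the rule.

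Complex II, which carries both the flavin and the iron-sulphur clusters of succinate dehydrogenase, had 0 of 4 members called and a median of -0.07. Its flavoprotein SDHA had 13.5 RPKM with siLARP7, against 15.6 RPKM with siNC (-0.19), and the iron-sulphur protein SDHB had 15.8 RPKM with siLARP7, against 14.7 RPKM with siNC (0.10). The membrane anchors SDHC and SDHD had log2 ratios of 0.04 and -0.21. SDHA has expressed pseudogenes, whose summed level was 18.1 RPKM with siLARP7 and 16.1 RPKM with siNC in this line, so its reads may be split among copies.

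In complex III, 2 of 9 members were lower and the median was -0.06. UQCRQ, a small subunit that contacts cytochrome b, had 83.6 RPKM with siLARP7, against 112 RPKM with siNC (-0.42). UQCRH, the hinge protein that helps cytochrome c1 meet cytochrome c, had 63.5 RPKM with siLARP7, against 82.2 RPKM with siNC (-0.37). CYC1 had 81.7 RPKM with siLARP7, against 102 RPKM with siNC (-0.31), just under the rule. In contrast the Rieske iron-sulphur protein UQCRFS1 had the highest ratio of the complex, with 59.3 RPKM with siLARP7, against 47.6 RPKM with siNC, or 125% of control (95% interval 121% to 128%), a log2 ratio of 0.31. A pseudogene group of UQCRFS1 summed to 18.5 RPKM with siLARP7 and 13.3 RPKM with siNC. The core proteins UQCRC1 and UQCRC2, which carry no redox centre, had log2 ratios of -0.13 and 0.05. Adjusted for GC content, length and level as described below, the 2 lower members were CYC1 (-0.38) and UQCRQ (-0.33). UQCRH then had -0.24 and was not called, and UQCRFS1 was higher at 0.38.

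Complex IV held the lowest ratio of all members. COX6C, a small transmembrane subunit, had 14.9 RPKM with siLARP7, against 30.6 RPKM with siNC, or 48.7% of control (95% interval 46.3% to 51.1%), a log2 ratio of -0.99. COX7A2, the widely expressed isoform of a small transmembrane subunit, had 31.9 RPKM with siLARP7, against 50.1 RPKM with siNC, or 63.8% of control (95% interval 61.0% to 66.7%), a log2 ratio of -0.63. COX7C, another small transmembrane subunit, had 88.4 RPKM with siLARP7, against 120.2 RPKM with siNC (-0.44). COX7A2L, which joins complexes III and IV into a supercomplex, and COX6A1 were lower as well, with log2 ratios of -0.38 and -0.35, so that 5 of 11 members were called lower and the median was -0.11. COX6A1 has an expressed pseudogene, at 9.06 RPKM with siLARP7 and 5.19 RPKM with siNC. COX4I1, COX5A, COX5B and COX6B1 were not among the lower genes. COX4I1, the largest of the nuclear subunits, had 35.3 RPKM with siLARP7, against 37.7 RPKM with siNC (-0.09). COX5A had 23.5 RPKM with siLARP7, against 23.1 RPKM with siNC (0.02). COX5B, which binds zinc, and COX6B1, on the intermembrane side, had log2 ratios of 0.20 and 0.29. Adjusted for GC content, length and level as described below, 3 of the 11 were lower (COX6C, COX7A2 and COX7A2L), while COX7C had -0.22 and COX6A1 -0.11, COX6B1 was higher at 0.38, and the median was -0.08.

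In ATP synthase 2 of 17 members were lower and the median was -0.14. ATP5G3, which like ATP5G1 and ATP5G2 encodes the proton-carrying c subunit, had 11.7 RPKM with siLARP7, against 18.2 RPKM with siNC, or 64.4% of control (95% interval 62.0% to 67.0%), a log2 ratio of -0.59. The other genes for this same mature protein were closer to 0, with 17.3 RPKM with siLARP7, against 19.9 RPKM with siNC for ATP5G1 (-0.19) and 13.8 RPKM with siLARP7, against 14.2 RPKM with siNC for ATP5G2 (-0.04). ATP5J2, the f subunit of the membrane part, had 39.0 RPKM with siLARP7, against 49.1 RPKM with siNC (-0.33). The 5 genes of the catalytic F1 head and central stalk had a median of 0.01 with 0 called, against -0.16 for the 10 genes of the membrane part and outer stalk. Of the catalytic subunits, ATP5A1 had 45.1 RPKM with siLARP7, against 44.9 RPKM with siNC (0.01) and ATP5B had 100.3 RPKM with siLARP7, against 113 RPKM with siNC (-0.17). ATP5D, of the central stalk, had the highest ratio of all members in this line, with 33.0 RPKM with siLARP7, against 26.3 RPKM with siNC (0.31). ATP5S and ATP5SL carry ATP5 names but are not counted among the subunits of the enzyme in later naming, and neither was called, with log2 ratios of 0.17 and -0.14. Adjusted for GC content, length and level as described below, 1 of the 17 was lower, ATP5G3 at -0.51. ATP5J2 then had -0.29, and the median was -0.05. The medians of the F1 head and of the membrane part are given without that adjustment.

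**Figure D2:**
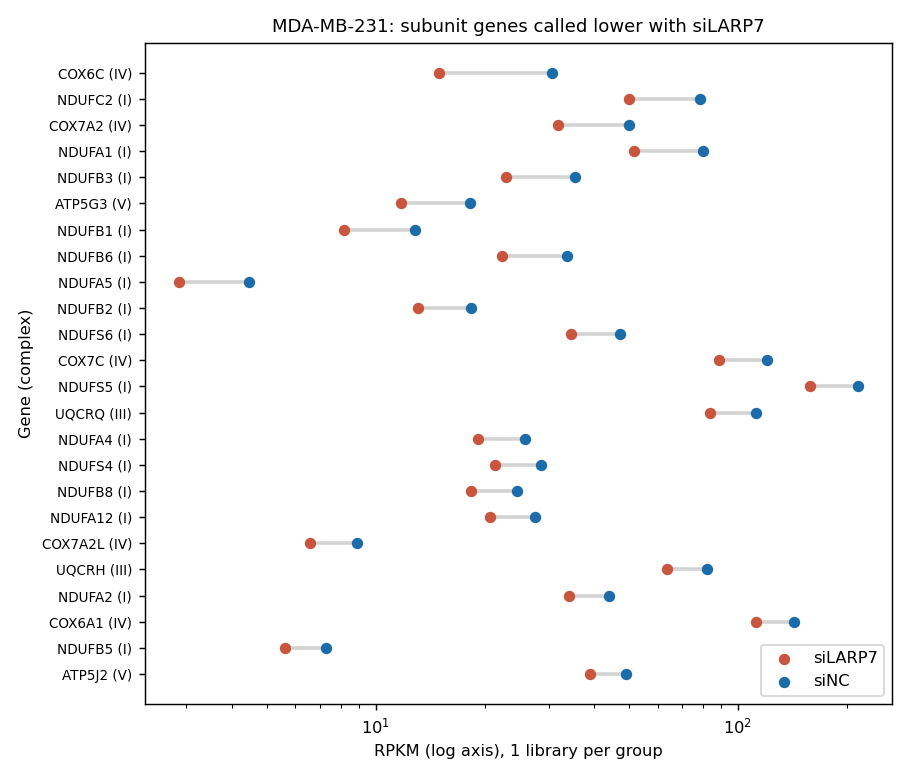
RPKM (horizontal log axis) of the 24 subunit genes called lower in MDA-MB-231 (vertical axis, with the complex in brackets), in the siLARP7 library (red) and the siNC library (blue), with 1 library per group. COX6C shows the widest gap, with 14.9 RPKM with siLARP7 and 30.6 RPKM with siNC, and the genes span levels from NDUFA5 to NDUFS5.

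The longest annotated transcripts of the members lower in MDA-MB-231 were shorter and had a lower GC content than those of the other members. In both human lines the ratio of protein-coding genes moved with this GC content. The longest annotated transcript of a gene, 13566 bases for SDHC, need not be the one expressed, which limits these values and the adjustment built on them. In MDA-MB-231 the 24 lower members had a median length of 998 bases for the longest transcript and a median GC content of 43.8%, against 1908 bases and 48.4% for the 54 members not called. Across the 78 members the Spearman correlation of the log2 ratio with GC content was 0.33, and with length 0.20; across 11524 protein-coding genes it was 0.38 and -0.06. Genes of 1 library pair share its depth and base composition, so these values are a description. When the dependence of the ratio on transcript GC content, transcript length and level, fitted over all protein-coding genes, was removed (called the trend below), the members' median became -0.08 (all protein-coding genes -0.02). Then 14 members were lower and 2 higher, UQCRFS1 and COX6B1, against 11.1% and 4.23% of protein-coding genes. COX6C stayed lowest with a log2 ratio of -0.86, followed by NDUFC2 with -0.57 and NDUFA1 with -0.54. Complex I accessory subunits kept a median of -0.23 with 8 of 30 lower, and the core had -0.07 with 0 of 7, while the medians of complexes II and III turned to 0.03 and 0.05. The part of library composition in the lower values was not tested beyond this.

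**Figure D3:**
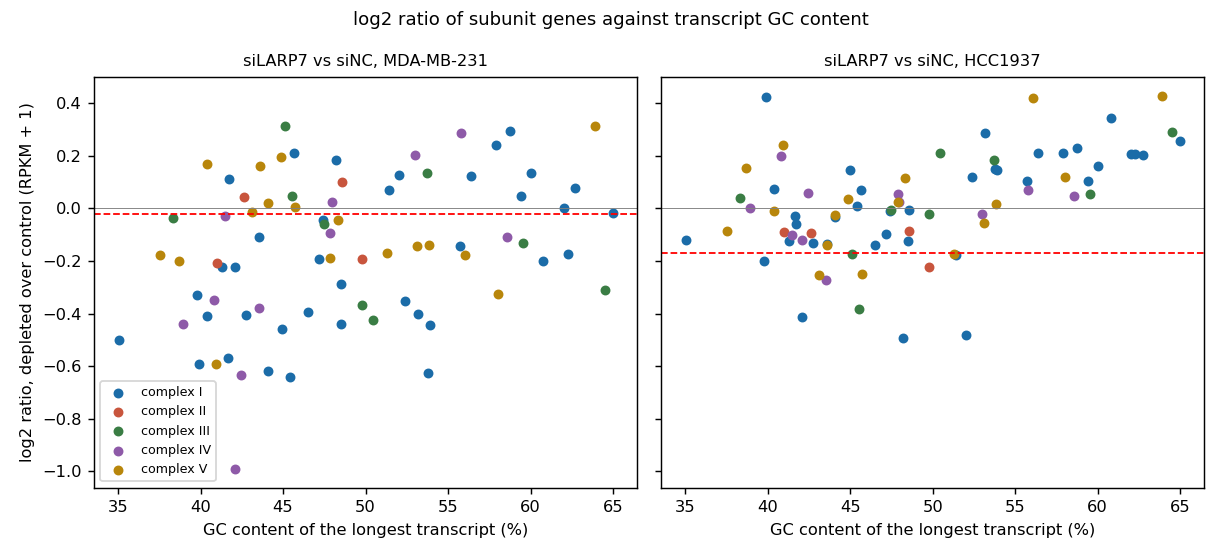
Log2 ratio of siLARP7 to siNC (RPKM + 1, vertical axis) of each subunit gene against the GC content of its longest transcript in percent (horizontal axis), in MDA-MB-231 and HCC1937. Colours mark complexes and the red dashed line is the median of protein-coding genes; the Spearman correlation across the 78 genes is 0.33 in MDA-MB-231 and 0.47 in HCC1937.

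Promoters of the members were searched for motifs of the known regulators. RefSeq promoters (GRCh38.p14, 250 bases before to 50 after the start) were matched for 62 of the 78 human members, and 3 motifs were searched on both strands: the NRF1 consensus, which reads as the capitals of NDUFA12 below with any base at the sixth position, AAGATGGC for YY1 and CCGGAAG for ETS factors such as GABP. None of the motifs is part of another. The NRF1 motif was in 15 of the 62 (24.2%) and in 7.39% of 22199 protein-coding promoters. The YY1 motif was in 16.1% and 3.53%, and the ETS motif in 30.6% and 12.8%. By complex, the NRF1 motif was in 4 of 7 promoters of complex III and in 0 of 10 of complex IV. Of the members called lower in MDA-MB-231 with a promoter, 1 of 17 held the NRF1 motif, 1 of 17 the YY1 motif and 4 of 17 the ETS motif. Of the members not called, 14 of 45 held the NRF1 motif, 9 of 45 the YY1 motif and 15 of 45 the ETS motif. These counts are small and were not tested, and a match is a description, not a site. Of the 7 members lower by 1.5-fold, 4 had a promoter in the table and 1 of them, NDUFA1, held any of these motifs.

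Shown are the promoters of NDUFA1, of NDUFA12, the 1 lower member with an NRF1 motif, and of COX6B1 and UQCRFS1, which had high ratios. They lie at chrX:119871582-119871881, plus strand, chr12:95003648-95003947, minus strand, chr19:35648073-35648372, plus strand and chr19:29213102-29213401, minus strand, and are written 5′ to 3′ on the strand of the gene. Capitals mark the match, to the ETS motif in NDUFA1 and COX6B1 and to the NRF1 motif in NDUFA12 and UQCRFS1, on either strand.
NDUFA1: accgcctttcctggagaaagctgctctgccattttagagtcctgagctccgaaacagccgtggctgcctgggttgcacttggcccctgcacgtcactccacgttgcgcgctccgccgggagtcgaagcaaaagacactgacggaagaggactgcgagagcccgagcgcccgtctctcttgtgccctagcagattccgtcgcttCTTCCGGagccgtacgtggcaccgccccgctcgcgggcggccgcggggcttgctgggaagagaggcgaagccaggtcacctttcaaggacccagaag
NDUFA12: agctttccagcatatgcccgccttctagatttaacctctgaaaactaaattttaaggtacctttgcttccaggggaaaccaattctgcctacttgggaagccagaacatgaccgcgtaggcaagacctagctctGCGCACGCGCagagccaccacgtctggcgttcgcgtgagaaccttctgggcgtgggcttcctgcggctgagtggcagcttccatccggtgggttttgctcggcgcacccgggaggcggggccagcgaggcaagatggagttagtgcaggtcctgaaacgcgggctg
COX6B1: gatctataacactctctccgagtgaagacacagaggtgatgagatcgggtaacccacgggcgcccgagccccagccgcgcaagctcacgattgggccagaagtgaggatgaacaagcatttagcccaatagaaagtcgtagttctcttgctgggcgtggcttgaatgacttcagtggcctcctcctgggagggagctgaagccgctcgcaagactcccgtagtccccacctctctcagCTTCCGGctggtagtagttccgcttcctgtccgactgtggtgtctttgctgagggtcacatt
UQCRFS1: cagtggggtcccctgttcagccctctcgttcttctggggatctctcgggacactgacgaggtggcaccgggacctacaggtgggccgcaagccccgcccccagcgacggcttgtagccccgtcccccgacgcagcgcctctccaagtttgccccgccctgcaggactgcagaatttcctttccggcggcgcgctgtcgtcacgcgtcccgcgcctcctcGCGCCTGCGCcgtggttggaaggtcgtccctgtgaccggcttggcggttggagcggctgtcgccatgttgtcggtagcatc
Both ETS matches read CTTCCGG on the strand of the gene, the reverse complement of the motif.

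In MEFs the subunit mRNAs stood close to their wild-type levels. The median log2 ratio of LARP7-/- to wild-type over the 79 members was 0.01, against -0.02 over all 13689 genes, with 36 members below 0 and 43 above. By the size rule 0 members were lower and 3 were higher, while 14.0% of all genes were called lower and 15.0% higher. At 1.5-fold 2 members were higher and 0 lower, against 5.75% and 4.25% of all genes, and at 2-fold there were none, against 1.59% and 0.935%. The summed RPKM of the members was 104% of that in wild-type MEFs. No estimate of the spread between cultures or embryos was available, and read numbers per gene were not recovered for MEFs.

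The 3 members called higher in MEFs were COX6B2, NDUFV3 and NDUFA6. COX6B2, known as a testis isoform of COX6B, had 9.89 RPKM in LARP7-/- MEFs, against 5.53 RPKM in wild-type MEFs, a log2 ratio of 0.74. NDUFV3, an accessory subunit of the NADH-binding part of complex I, had 15.9 RPKM in LARP7-/- MEFs, against 10.2 RPKM in wild-type MEFs (0.60). NDUFA6, an accessory subunit of the matrix arm, had 26.5 RPKM in LARP7-/- MEFs, against 20.1 RPKM in wild-type MEFs (0.38). NDUFA1, among the lowest members in MDA-MB-231, was next, with 61.5 RPKM in LARP7-/- MEFs, against 49.2 RPKM in wild-type MEFs (0.32 after rounding), just under the rule. The lowest ratio in complex I was that of NDUFA10, an accessory subunit, with 12.6 RPKM in LARP7-/- MEFs, against 15.4 RPKM in wild-type MEFs (-0.27).

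Complex IV had the highest median of the complexes in MEFs, 0.13, with 11 of 13 members above 0 and 1 called. COX8A had 227 RPKM in LARP7-/- MEFs, against 193 RPKM in wild-type MEFs (0.24), while COX5A had the lowest ratio of all members in these cells, with 45.1 RPKM in LARP7-/- MEFs, against 55.5 RPKM in wild-type MEFs (-0.30). The summed RPKM of the complex was 111% of that in wild-type MEFs, with COX6A1 its most abundant member. Complex III was the most uniform, with its 9 members between -0.05 and 0.02. Its Rieske protein UQCRFS1 had 47.7 RPKM in LARP7-/- MEFs, against 49.1 RPKM in wild-type MEFs. In complex II the median was -0.09, with 33.6 RPKM in LARP7-/- MEFs, against 38.7 RPKM in wild-type MEFs for SDHA (-0.20). In ATP synthase the catalytic subunits ATP5A1 and ATP5B had log2 ratios of -0.21 and -0.14, with 125 RPKM in LARP7-/- MEFs, against 144 RPKM in wild-type MEFs for ATP5A1. The e subunit gene, ATP5K in the mouse, had 30.7 RPKM in LARP7-/- MEFs, against 25.4 RPKM in wild-type MEFs (0.26). None of these passed the rule.

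An alternative isoform with 0 RPKM in the human lines was measurable in MEFs. COX4I2, the lung-enriched alternative to COX4I1, had 2.04 RPKM in LARP7-/- MEFs, against 1.62 RPKM in wild-type MEFs, far below COX4I1 with 170.1 RPKM in LARP7-/- MEFs, against 159 RPKM in wild-type MEFs. COX4I2 was the lowest member inside the level rule in MEFs. The highest outside it was COX7A1, the heart and skeletal muscle alternative to COX7A2. COX7A1 had 0.651 RPKM in LARP7-/- MEFs, against 0.253 RPKM in wild-type MEFs. In MDA-MB-231 it had 0.429 RPKM with siLARP7, against 0.160 RPKM with siNC, and in HCC1937 0 RPKM in both libraries. In the human lines the nearest values were ATP5S inside the rule in MDA-MB-231, with 2.76 RPKM with siLARP7, against 2.34 RPKM with siNC, and COX7B2, a testis isoform, outside it with 0.0451 RPKM with siLARP7, against 0.170 RPKM with siNC. In HCC1937 they were NDUFA10, with 2.04 RPKM with siLARP7, against 2.07 RPKM with siNC, and COX6B2, with 0.792 RPKM with siLARP7, against 0.786 RPKM with siNC.

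In HCC1937 most genes had lower values with siLARP7, 66.0% of all genes against 51.7% in MDA-MB-231 and 52.9% in MEFs. The median log2 ratio of siLARP7 to siNC was -0.15 over all 15415 genes and -0.17 over protein-coding genes, while over the 78 members it was 0.01, with 37 below 0 and 41 above. By the size rule 4 members were lower (5.13%) and 4 higher (5.13%), against 31.3% of all genes called lower and 8.74% higher (32.9% and 7.21% of protein-coding genes). On the RPKM + 1 scale 0 members reached 1.5-fold, while 11.1% of all genes were lower and 2.28% higher by that much, and 1.27% and 0.311% by 2-fold. Scaled so that the median gene ratio was 1, the members had a median of 0.14, with 2 lower and 16 higher, against -0.04 and 22.9% lower and 15.6% higher for all genes. With the trend removed instead, the median was -0.12, with 8 lower and 2 higher, against -0.16 and 27.0% lower and 3.25% higher for protein-coding genes. The members' median was thus above 0 as deposited and scaled, and below 0 with the trend removed. These signs do not share a zero point. The scaling sets the median gene ratio to 1, while removing the trend keeps the mean log2 ratio of protein-coding genes. In each case the members' median lay above that of the genes given beside it. Intervals covering counting error lay below 100% for 27 members, above it for 35 and included it for 16.

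Among the lower members in HCC1937 were NDUFV3, NDUFS1 and UQCRC2. NDUFV3 had 2.25 RPKM with siLARP7, against 3.57 RPKM with siNC, or 63.0% of control (95% interval 57.3% to 69.3%), a log2 ratio of -0.49. The core subunit NDUFS1 had 3.13 RPKM with siLARP7, against 4.50 RPKM with siNC (-0.42), and UQCRC2, a core protein of complex III, had 20.1 RPKM with siLARP7, against 26.5 RPKM with siNC (-0.38). With the median gene ratio set to 1, NDUFV3 was still called lower, while NDUFS1 and UQCRC2 were not. With the trend removed, NDUFV3 and UQCRC2 were called lower, with log2 ratios of -0.37 and -0.36.

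The 4 higher members were ATP5D, NDUFB1, ATP5I and NDUFS7. ATP5D had 42.4 RPKM with siLARP7, against 31.3 RPKM with siNC, or 136% of control (95% interval 129.8% to 142%), a log2 ratio of 0.43. NDUFB1 had 27.3 RPKM with siLARP7, against 20.1 RPKM with siNC, or 136% of control (95% interval 129% to 143%) (0.42). ATP5I, the e subunit that helps ATP synthase form dimers, had 70.8 RPKM with siLARP7, against 52.8 RPKM with siNC (0.42), and NDUFS7, an iron-sulphur core subunit, had 21.6 RPKM with siLARP7, against 16.8 RPKM with siNC (0.34). Of these, NDUFB1 alone passed the rule with the trend removed, at 0.52, while ATP5D, whose longest annotated transcript has a GC content of 63.9%, came to 0.00. CYC1, the most abundant complex III mRNA in this line, had 526 RPKM with siLARP7, against 430.0 RPKM with siNC (0.29), and -0.28 with the trend removed.

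By complex, the HCC1937 medians lay between -0.09 (complex II, 4 of 4 members below 0) and 0.07 (complex I). With the median gene ratio set to 1 they lay between 0.04 (complex II) and 0.20 (complex I). With the trend removed they lay between -0.26 (complex III) and -0.06 (complex V), against -0.16 for protein-coding genes. Complex I core and accessory members had medians of 0.10 and 0.04. The genes of the F1 head and central stalk had a median of -0.14 and those of the membrane part and outer stalk 0.03, with 12.8 RPKM with siLARP7, against 15.3 RPKM with siNC for ATP5A1 (-0.25), 185 RPKM with siLARP7, against 209 RPKM with siNC for ATP5B (-0.17) and 39.1 RPKM with siLARP7, against 43.2 RPKM with siNC for the central stalk gene ATP5C1 (-0.14).

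The 24 genes lower in MDA-MB-231 had medians near 0 in the other cells. In HCC1937 they had a median log2 ratio of 0.03, with 10 below 0 and 14 above, and the other 54 members had 0.00. In MEFs the 23 of them that were measured had a median of 0.02, with 9 below 0 and 14 above, against 0.00 for the other 56. None of the 24 was among the 4 members called lower in HCC1937, which are too few for the lack of overlap to be a result. Over all genes at 1 RPKM or more in both controls, 589 were lower in both lines, 34.5% of the 1706 lower in MDA-MB-231 and 13.9% of the 4223 lower in HCC1937. In MEFs 0 members were called lower, so that no overlap was possible there. Across the 78 members the log2 ratios of MDA-MB-231 and HCC1937 had a Pearson correlation of -0.08 and a Spearman correlation of -0.05, across genes and as a description. COX6C, lowest in MDA-MB-231, had 83.6 RPKM with siLARP7, against 91.0 RPKM with siNC in HCC1937 (-0.12) and 29.9 RPKM in LARP7-/- MEFs, against 29.7 RPKM in wild-type MEFs (0.01). NDUFC2 had log2 ratios of 0.01 in HCC1937 and 0.20 in MEFs, and COX7A2 had 0.06 and -0.18. ATP5G3 had 21.4 RPKM with siLARP7, against 18.0 RPKM with siNC in HCC1937 (0.24), on the other side of 0 from MDA-MB-231. The difference between cell types was not tested.

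**Figure D4:**
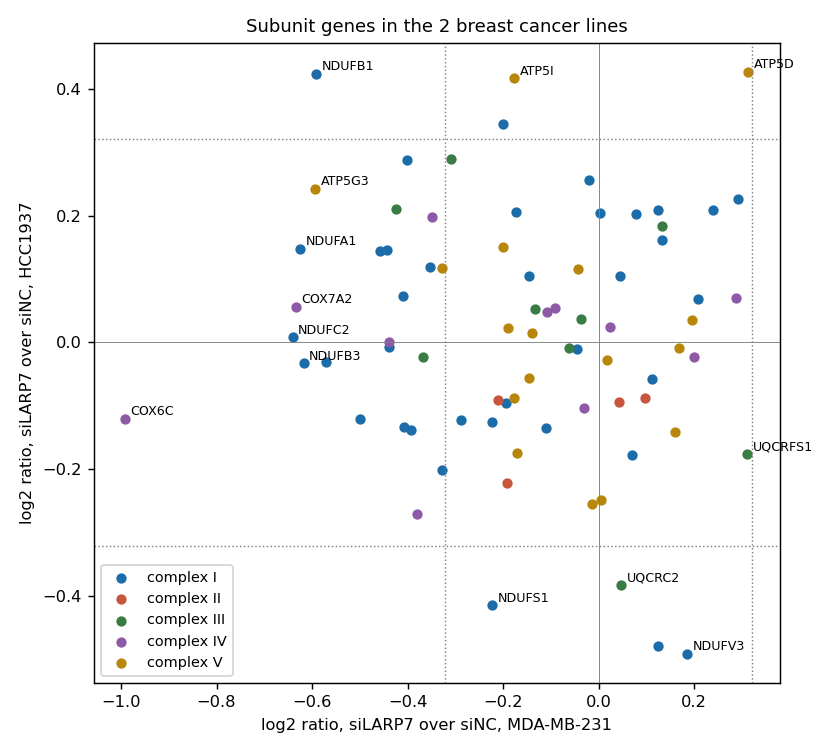
Log2 ratio of siLARP7 to siNC (RPKM + 1) of the 78 subunit genes in MDA-MB-231 (horizontal axis) and HCC1937 (vertical axis), coloured by complex, with dotted lines at the size rule of 0.32 and 1 library per group. No gene lies below the dotted lines in both lines, and NDUFB1 lies lower in MDA-MB-231 (-0.59) and higher in HCC1937 (0.42).

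Of the 76 members matched by symbol in all 3 cell types, 46 (60.5%) were called in none. The share was 37.4% of the 8083 genes matched by symbol at 1 RPKM or more in the 3 controls. The e subunit gene of ATP synthase is not among the 76, because its symbol differs between mouse (ATP5K) and human (ATP5I). Of the 8083 genes 23.1% were below 0 in all 3 cell types and 8.44% above. A ratio below 0 in all 3 was found for 13 members (17.1%), among them the catalytic ATP5B with log2 ratios of -0.14 in MEFs, -0.17 in MDA-MB-231 and -0.17 in HCC1937. SDHA had -0.20, -0.19 and -0.22 in the same order, and NDUFA12 had -0.27, -0.39 and -0.14. The SDHA values of the human lines are uncertain, because reads may be split with expressed pseudogenes. In HCC1937 these summed to 53.5 RPKM with siLARP7 and 45.3 RPKM with siNC, above SDHA itself (22.4 and 26.3 RPKM). A ratio above 0 in all 3 was found for 9 (11.8%), among them ATP5D with 0.07, 0.31 and 0.43, and NDUFB10 with 0.00, 0.29 and 0.23. Most of these ratios were small, and the values in HCC1937 move with the scaling and the trend given above.

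Other genes of the pathway were read in the same way, from lists. The 13 mRNAs of the mitochondrial genome, which encode the remaining subunits, were all above 0 in MDA-MB-231, with 10 called higher and a median log2 ratio of 0.39. They were all below 0 in HCC1937, with 10 called lower and a median of -0.49, and 12 of 12 were above 0 in MEFs, with 1 called and a median of 0.22. In MDA-MB-231, MT-CO1, the catalytic subunit of complex IV, had 9717 RPKM with siLARP7, against 7634 RPKM with siNC, while its nuclear partner COX6C had the lowest ratio of the members. Whether the mitochondrial and nuclear values are linked was not tested. For mitochondrial ribosomal proteins, which make those subunits, 7 of 76 genes were lower and 6 higher in MDA-MB-231 (median 0.01), 23 of 75 lower and 0 higher in HCC1937 (median -0.17), and 2 of 77 lower and 0 higher in MEFs (median -0.07). Beside these and the counts below stand the shares of all genes, 14.1% lower and 9.3% higher in MDA-MB-231, 31.3% and 8.74% in HCC1937, and 14.0% and 15.0% in MEFs. The 30.7% of mitochondrial ribosomal protein genes lower in HCC1937 is near the share of all genes and is no result about that list.

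Assembly factors, which build the complexes without staying in them, had 4 of 42 lower and 0 higher in MDA-MB-231, with a median of 0.00. These were NDUFAF1, a complex I factor, with 4.43 RPKM with siLARP7, against 7.24 RPKM with siNC, PET100, a complex IV factor, with 30.6 RPKM with siLARP7, against 45.8 RPKM with siNC, and the complex IV factors COA6 and COX14, with log2 ratios of -0.42 and -0.38. In HCC1937 10 of 43 were lower and 1 higher (median -0.18, against -0.15 over all genes), with 2.42 RPKM with siLARP7, against 4.35 RPKM with siNC for NDUFAF1, and in MEFs 4 of 43 were lower and 3 higher (median 0.06). The genes of the mobile carriers cytochrome c and ubiquinone had 0 lower and 1 higher of 10 in MDA-MB-231, COQ4 with 10.7 RPKM with siLARP7, against 8.17 RPKM with siNC, 1 lower of 10 in HCC1937 and 0 called of 11 in MEFs.

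Of the regulators of these genes, 3 of 9 were lower and 2 higher in MDA-MB-231. TFAM, which packages and transcribes the mitochondrial genome, had 9.25 RPKM with siLARP7, against 12.1 RPKM with siNC in MDA-MB-231, 3.01 RPKM with siLARP7, against 4.11 RPKM with siNC in HCC1937 and 3.76 RPKM in LARP7-/- MEFs, against 4.89 RPKM in wild-type MEFs. GABPA, the DNA-binding subunit of GABP, had 4.75 RPKM with siLARP7, against 6.60 RPKM with siNC in MDA-MB-231 and 2.56 RPKM with siLARP7, against 4.50 RPKM with siNC in HCC1937, with 9.87 RPKM in LARP7-/- MEFs, against 10.3 RPKM in wild-type MEFs. HIF1A, the hypoxia factor, had 26.6 RPKM with siLARP7, against 45.5 RPKM with siNC in MDA-MB-231 (-0.75), but 84.6 RPKM in LARP7-/- MEFs, against 54.4 RPKM in wild-type MEFs (0.63). PPRC1, a coactivator of the PGC-1 family, was called higher in MDA-MB-231, with 8.90 RPKM with siLARP7, against 6.08 RPKM with siNC. In HCC1937 3 of 9 regulators were lower and 0 higher, close to the share of all genes, and in MEFs 2 were lower and 1 higher. NRF1 was called lower in HCC1937 (-0.52) and MEFs (-0.49), and had a log2 ratio of 0.08 in MDA-MB-231. MYC was called higher in MDA-MB-231 (0.39) and lower in MEFs (-0.38), with 0.17 in HCC1937. YY1 was not called in any cell type. Whether regulator and subunit values are linked was not tested.

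**Figure D5:**
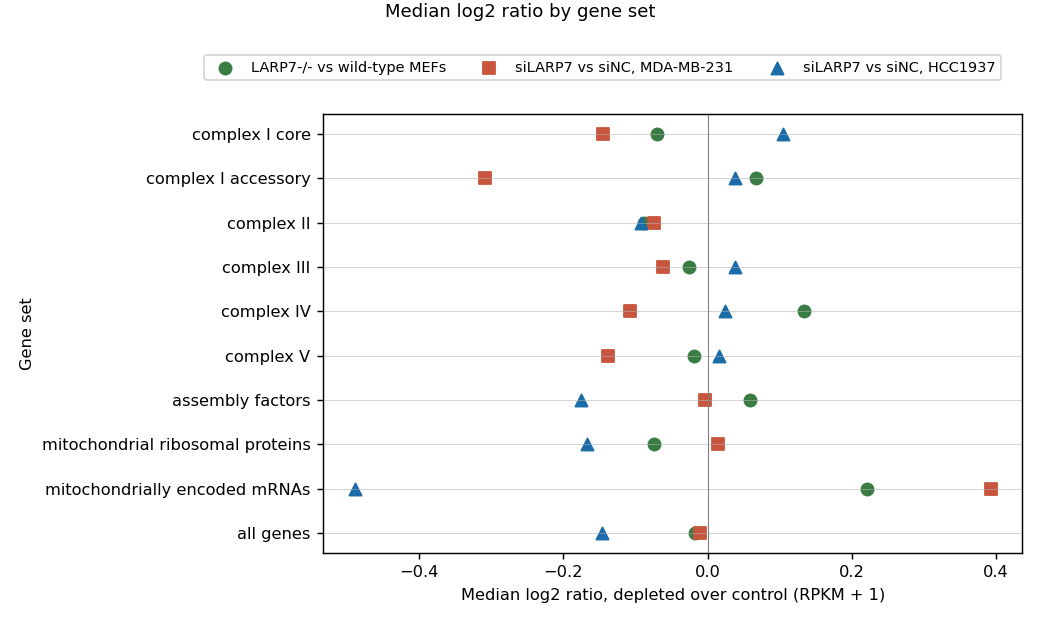
Median log2 ratio of LARP7-depleted to control (RPKM + 1, horizontal axis) of each gene set (vertical axis), in MEFs (circles), MDA-MB-231 (squares) and HCC1937 (triangles), with 1 library per group. Complex I accessory subunits have the lowest median of the nuclear sets in MDA-MB-231, -0.31, while the mitochondrially encoded mRNAs have 0.39 there and -0.49 in HCC1937.

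Some members share reads with copies elsewhere in the genome. Of the human members, 10 had 19 further entries, of which 15 had control values within 1% of the one used, and pseudogene entries at 1 RPKM or more existed for 4 members in MDA-MB-231 and 5 in HCC1937. For UQCR11, a small complex III subunit, an overlapping entry had 50.1 RPKM with siLARP7 and 33.5 RPKM with siNC in HCC1937, against 65.2 and 57.3 RPKM for the entry used, so its value is uncertain. SDHD, NDUFA7 and NDUFB8 also had a further entry with other values, and are uncertain for that reason. The authors also deposited a shrunken log2 change per gene. In the authors' deposited table for MDA-MB-231, 45 of the 78 members had a value below 0, 17 above 0 and 16 at 0, with COX6C lowest at -0.95. In the authors' deposited table for HCC1937, 27 were below 0, 35 above and 16 at 0, with NDUFV3 lowest at -0.51. In the authors' deposited table for MEFs, 15 were below 0, 26 above and 38 at 0, with COX6B2 highest at 0.56.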

How the data were processed

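RNA was sequenced in 6 libraries, 1 per group. Per the submitters' processing notes, the tools were STAR, cutadapt and FastQC and the build was GRCh37, with versions and order left out. The MEF table lists mouse gene IDs; its build, and whether strand was used, are not given in the sources. The authors deposited 1 RPKM value per gene and library and a shrunken log2 change (GFOLD at 0.01), per the file headers. The design foresaw a possible use of counts, but the files hold RPKM.

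Groups come from the labels, and table columns were matched by name. Per gene the log2 ratio of (depleted RPKM + 1) to (control RPKM + 1) was computed with pandas 2.3.3 and numpy 2.4.6 on Python 3.11.15. The pseudocount of 1 understates the change of low genes. Calls are at a log2 ratio of 0.32 in size, with 1.5- and 2-fold beside it. For a symbol with several entries, the lowest gene ID was used. The 47 pseudoautosomal Y entries of each human table were left out.

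Depth was recovered from RPKM steps, using GENCODE release 29 lengths for human genes and short genes alone for MEFs, and gave 0.0187 to 0.0271 RPKM for 1 read in 1 kb. From approximate read numbers, 95% intervals of each ratio were computed by the exact Clopper-Pearson method (scipy 1.17.1). PCR copies are not independent molecules, so they cover counting error only. The trend was a polynomial of degree 3 in transcript GC content, log2 transcript length (longest transcript) and mean level over protein-coding genes, with the mean log2 ratio added back. It could not be fitted in MEFs, for which no transcripts were used here. The steps were checked on simulated data. Alternatives were the pseudocount, the level minimum, 2 scalings, the trend, the members and the fold.

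Named genes are, per cell type and complex, the 2 lowest and 2 highest ratios, the core subunits, and all members at 1.5-fold in any cell type. Other called members, and genes of other lists, were named after their values were seen. Some genes that the rule names are counted but not reported here. The members and lists were chosen with earlier results of these data known.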

Additional observations from a re-analysis of the deposited data

Results flagged for a closer look

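NDUFB1, an accessory complex I subunit, was called lower in MDA-MB-231 with a log2 ratio of -0.59 and higher in HCC1937 with 0.42. It was picked out because the ratios of siLARP7 to siNC lie on opposite sides of 0 in the breast cancer lines, each past the size rule of 0.32.

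NDUFV3, of the NADH-binding part of complex I, was called higher in MEFs with a log2 ratio of 0.60 and lower in HCC1937 with -0.49, while MDA-MB-231 had 0.19. It was picked out because its ratios lie on opposite sides of 0 in MEFs and HCC1937, each past that size rule. With 1 library per group neither difference was tested.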

How the results depend on the processing

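No paired analysis was possible because each group held 1 library. For MDA-MB-231 the median kept its direction under each alternative run (-0.08 to -0.15). The 24 members called lower became 14 with the trend (GC content, transcript length and level) removed, 7 at 1.5-fold and 0 at 2-fold. The 0 called higher became 1 with a pseudocount of 0.1, 1 with no pseudocount and 2 with the trend removed. In MEFs the 3 called higher became 6 with no pseudocount, 5 with no level minimum and 0 at 2-fold. In HCC1937 the median of 0.01 became 0.14 with the median gene ratio set to 1 and 0.15 with a trimmed mean scaling. It became -0.12 with the trend removed, which keeps the mean log2 ratio and left protein-coding genes at -0.16. The 4 called lower became 2 and 2 under the scalings, 8 with the trend removed, 2 with a minimum of 5 RPKM, 2 with a minimum of 10 RPKM, and 0 at 1.5-fold and at 2-fold. The 4 called higher became 16, 17 and 2 under the scalings and the trend, and 0 at 1.5-fold and at 2-fold. For changes of fold, fewer calls follow from the rule; the cause of the others was not tested. The minimum of 10 RPKM and a run without members that have an expressed pseudogene were chosen after seeing the data. Of 115 medians of a complex 10 moved, as did 111 of 466 values of named genes. No gene called on the values as deposited changed sign. Other genes did, such as NDUFB7 in HCC1937, which was not called as deposited (0.26). It was higher with the median gene ratio set to 1 (0.39) and lower with the trend removed (-0.36). Leaving out a replicate was not possible with 1 per group. At these depths 3 reads in 1 kb are worth 0.0562 to 0.0813 RPKM, below the control level of each member. Counting error still limits some ratios, as its interval included 100% for 12 members in MDA-MB-231 and 16 in HCC1937. It was not estimated in MEFs. The unknown spread between cultures limits all ratios.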
